A study of Bos taurus with 2 samples.

Results

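The transcripts described are those of 7 genes of the endocannabinoid system in bovine testis: the cannabinoid receptors CNR1 and CNR2, the synthesis enzymes NAPEPLD, DAGLA and DAGLB, and the breakdown enzymes FAAH and MGLL. They were taken by gene name, with every probe of the array that carried one of these names, which gave 21 of 51279 probes and 7 of 32428 gene names. Testes of crossbred bulls, Holstein Friesian crosses, were compared with testes of Zebu bulls of the Tharparkar breed. Bulls of both groups were 24 months old, and 1 testis was removed from each by surgery. Per the study's methods, equal RNA of 3 bulls per group was mixed, and the mixture was read on 1 array with the dye Cy3. There were thus 2 arrays, 1 per group, so that the spread between bulls cannot be seen, no test between breeds was possible and no p-value is given.

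Endocannabinoids are lipids made on demand from membrane phospholipids. Anandamide, an N-acylethanolamine, is released by the phospholipase NAPE-PLD (gene NAPEPLD) and broken down by fatty acid amide hydrolase (FAAH). The other main ligand, 2-arachidonoylglycerol, is made by the diacylglycerol lipases (DAGLA, DAGLB) and broken down chiefly by monoacylglycerol lipase (MGLL). Both ligands act on the receptors CB1 (CNR1), best known from nerve endings, and CB2 (CNR2), best known from immune cells. Each receptor works through inhibitory G proteins that lower cyclic AMP. In the male, parts of the system have been described in germ cells, Leydig cells, Sertoli cells and spermatozoa, and anandamide is known to act on sperm motility and capacitation.

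Each probe is an oligonucleotide of 60 bases that hybridises to one stretch of a transcript. The first set of probe sequences, those of FAAH, is shown because several stretches of the same transcript were read by separate probes. Positions count from the first base of the transcript. All 3 lie on the minus strand of chromosome 3 of the build Btau_3.1 given with the array, at chr3:106622816-106624293, chr3:106621475-106622487 and chr3:106619967-106620244. These intervals are longer than the probes, at 1478, 1013 and 278 bases, as for exon sequence that is interrupted by an intron in the genome.
FAAH position 1410: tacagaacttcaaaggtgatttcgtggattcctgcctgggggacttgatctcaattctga
FAAH position 1538: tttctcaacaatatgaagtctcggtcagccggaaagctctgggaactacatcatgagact
FAAH position 1805: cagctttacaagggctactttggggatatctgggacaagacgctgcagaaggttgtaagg

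The second set belongs to the receptors, whose probes lay near background. Capitals mark the 17 bases that the first and the second CNR1 probe share, so that these probes are not independent of each other. The CNR1 probes carry no position on Btau_3.1 in the array's annotation, and the RefSeq gene table, whose assembly is ARS-UCD2.0, places CNR1 on chromosome 9. The CNR2 probes lie on the plus strand at chr2:133477944-133478003 and chr2:133478622-133478681.
CNR1 position 387: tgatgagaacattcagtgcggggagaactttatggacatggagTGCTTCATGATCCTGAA
CNR1 position 430: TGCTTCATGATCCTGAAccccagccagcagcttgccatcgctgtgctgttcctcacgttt
CNR1 position 1451: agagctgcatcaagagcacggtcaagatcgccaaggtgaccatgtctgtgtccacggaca
CNR2 position 492: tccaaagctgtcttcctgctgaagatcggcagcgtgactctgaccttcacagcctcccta
CNR2 position 1170: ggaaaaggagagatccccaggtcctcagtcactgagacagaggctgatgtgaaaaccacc

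The third set belongs to the enzymes of 2-arachidonoylglycerol and is shown to tell apart the products of similar genes. The DAGLB probes lie on the minus strand at chr25:40140958-40142156 and chr25:40140495-40140554, the DAGLA probe on the plus strand at chr29:41820616-41820675 and the MGLL probe on the plus strand at chr22:61744012-61751702. Probes of different genes among the 21 shared at most 9 bases in a row, so no DAGLA probe matched a DAGLB probe over a long stretch.
DAGLB position 1544: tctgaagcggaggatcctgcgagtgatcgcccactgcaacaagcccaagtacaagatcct
DAGLB position 1899: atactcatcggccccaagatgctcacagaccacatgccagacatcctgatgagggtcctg
DAGLA position 183: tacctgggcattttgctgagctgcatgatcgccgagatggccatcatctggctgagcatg
MGLL position 636: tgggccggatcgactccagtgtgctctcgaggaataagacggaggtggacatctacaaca

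Levels are given as the log2 of the processed signal minus the 75th percentile of the same array, so that a level of 0 is the signal at that percentile. Differences are crossbred minus Zebu on this log2 scale. Where a gene had several probes, the brightest on average stood for it. It counted as higher or lower from a difference of 1.5 upwards in size, a 2.83-fold ratio, provided that the brighter signal carried the scanner's mark for well above background. The lowest marked level was -5.78 for crossbred and -5.94 for Zebu testis. Every probe of the 7 genes was printed as 1 spot. Elsewhere on the arrays 5960 probes with both signals well above background had several spots. Their spots gave an SD of 0.33 for a difference between single spots, which covers spotting and scanning only. Within 1 array the SD between spots was 0.29 for crossbred and 0.18 for Zebu testis.

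Of the 7 genes, NAPEPLD was higher in crossbred testis and none was lower at this threshold. FAAH and CNR1 had positive differences below it, DAGLB and MGLL had negative differences below it, CNR2 was at the edge of detection, and DAGLA was not well above background on either array. Of 24758 gene names detected on at least 1 array, 7.25% were higher and 2.98% were lower by the same rule, 10.2% in either direction. Among 39804 detected probes 6.14% were higher. Among the 6 detected members the difference, or its bound where 1 array was dim, was above 0 for 3 and below 0 for 3, with a median of 0.35, and over all detected names it was above 0 for 46.9%, with a median of -0.05. The members' median lies between FAAH and the CNR2 bound, and it was 0.95 with spots well above background on both arrays only, -0.0612 with all probes of a gene averaged, and -0.27 without spots near a patch. Of the 21 probes, 14 had both signals well above background, 3 had 1 such signal and 4 had none.

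**Figure D1:**
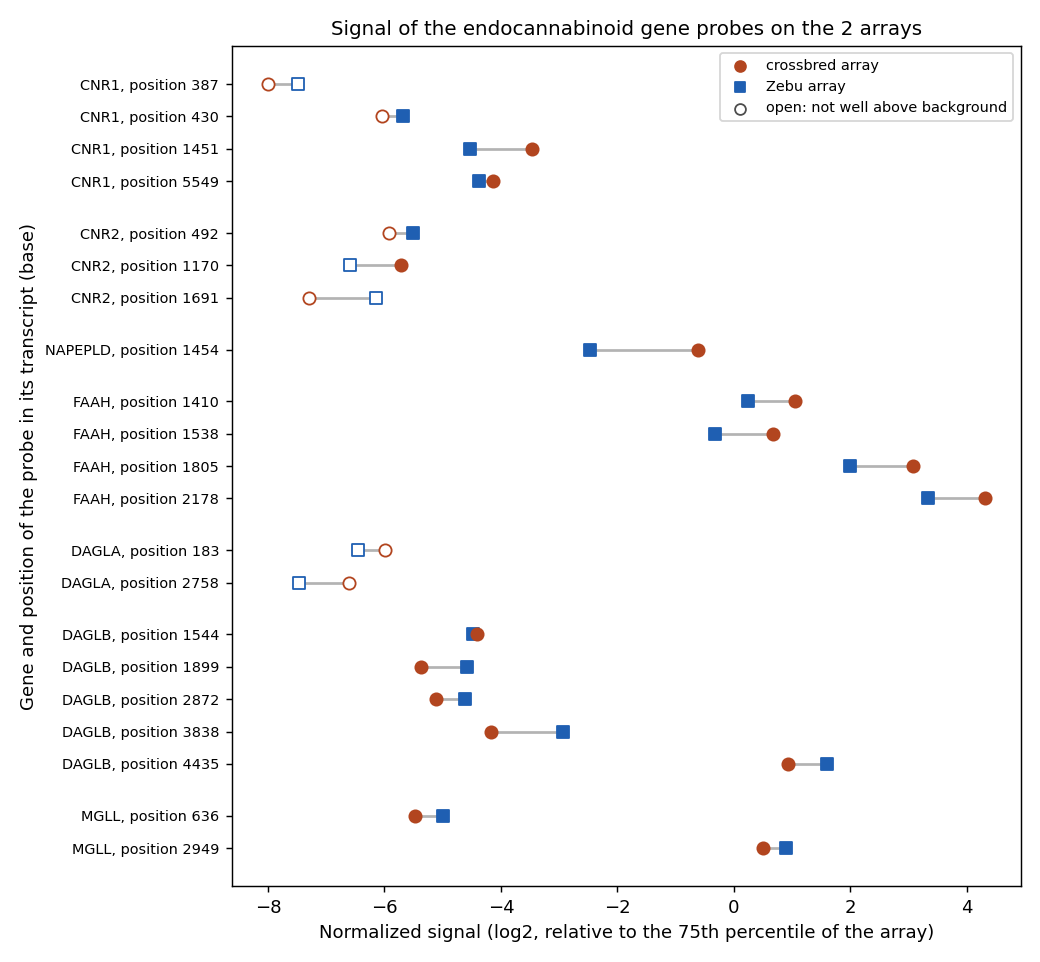
Normalized signal (log2, relative to the 75th percentile of each array) of the 21 probes of the 7 genes, with 1 point for the crossbred array and 1 for the Zebu array per probe; open symbols were not well above background. The crossbred point lies to the right for NAPEPLD and for the 4 FAAH probes, and to the left for both MGLL probes and for 4 of the 5 DAGLB probes.

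The crossbred array has a dark patch of 544 spots, where the median difference was -1.37, and a bright patch of 105 spots, where it was 1.29. None of the 21 member spots lay inside either patch, and 5 lay within 15 rows and 15 columns of one: those of NAPEPLD, FAAH position 1538, CNR1 position 387, CNR2 position 1691 and DAGLA position 183.

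CNR1 encodes CB1, the cannabinoid receptor that couples to inhibitory G proteins. Its probe at position 1451 read -3.47 in crossbred testis and -4.53 in Zebu testis, from processed signals of 106 and 53.4. The difference was 1.06, which is 3.3 times the SD of 0.33 between spots at that level and below the threshold. The probe at position 5549 read -4.14 and -4.38, a difference of 0.24 that was smaller than the spot SD of 0.35 at that level. These 2 probes of the same transcript had the same sign, and the SD between their differences was 0.58, from 2 probes only. For CNR1, normexp background correction gave 0.60 and averaging all 4 probes gave 0.11.

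The 2 overlapping CNR1 probes nearer the start of the transcript were dimmer still. That at position 430 was well above background in Zebu testis alone, at -5.68 against -6.04, which allowed at least a 1.07-fold lower level in crossbred testis. That at position 387 read -8.00 and -7.48 and was not well above background on either array. CNR1 was therefore detected by 3 of 4 probes, without a common direction.

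CNR2 encodes CB2, the receptor known mainly from cells of the immune system. Its probe at position 492, the brightest of the 3, was well above background in Zebu testis alone, at -5.51 against -5.93 in crossbred testis, at least 1.204-fold lower in the crossbred. Its probe at position 1170 was well above background in crossbred testis alone, at -5.71 against -6.59, at least 1.17-fold higher in the crossbred. The third, at position 1691, read -7.29 and -6.15 and was not well above background on either array. The 2 detected probes pointed in opposite directions, each with a signal within 1 log2 unit of the lowest level marked as well above background, so no difference in CNR2 could be given at this signal.

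NAPEPLD, the phospholipase that releases anandamide and other N-acylethanolamines, had a single probe, at position 1454 and at chr4:46044015-46044074 on the minus strand of Btau_3.1. It read -0.61 in crossbred testis and -2.47 in Zebu testis, from processed signals of 768 and 222. The difference of 1.86, a ratio of 3.62, was 5.7 times the spot SD of 0.33, and it was the only one among the 7 genes past the threshold. Of 2499 detected gene names of like mean level, each by its brightest probe, 5.24% had a larger positive difference.

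The NAPEPLD spot lies 3 columns outside the dark patch, where signals of the crossbred array were low, and its own difference was positive. Of its 18 nearest spots none reached it: their median difference was -0.41 and the highest was 1.49. None of the 6 adjacent spots was higher past the threshold. With the normexp background correction the NAPEPLD difference was 1.49, just under the threshold. No other probe of the transcript can repeat the reading.

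**Figure D2:**
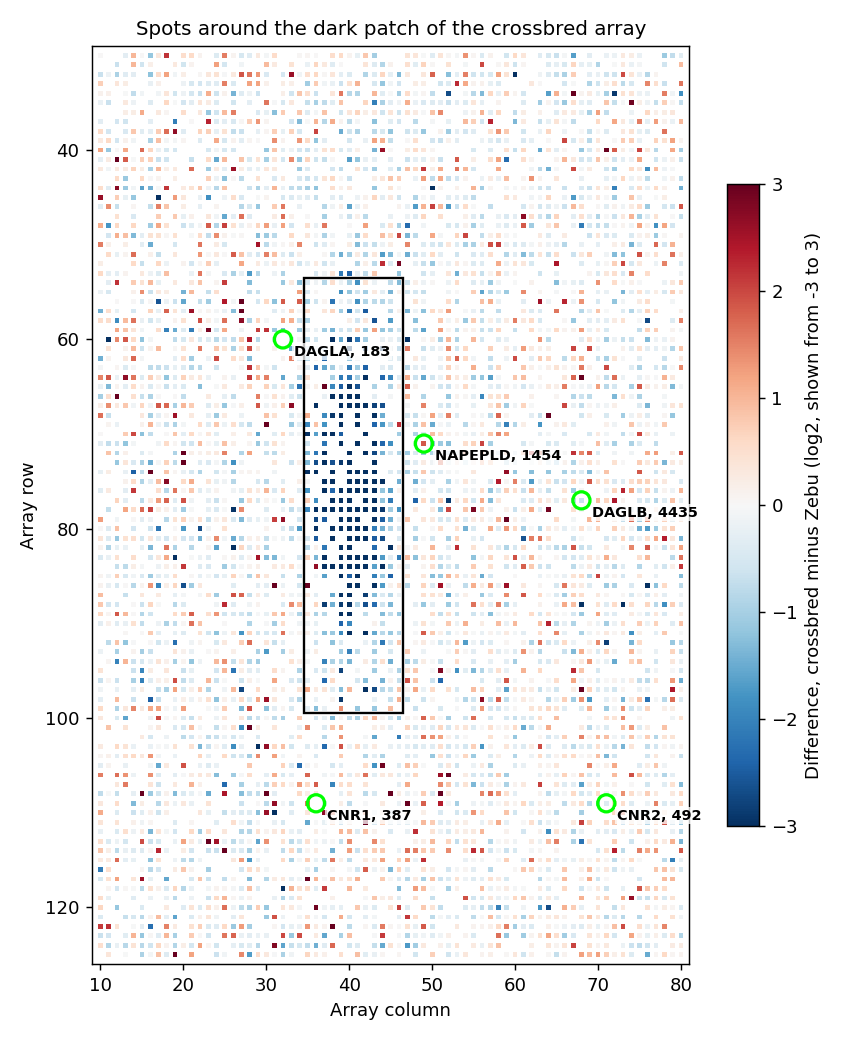
Difference (log2, crossbred minus Zebu) of single spots by array row and column around the dark patch of the crossbred array (black frame), with colours limited to -3 to 3 and the member spots in the window circled. Dark blue spots gather inside the frame, and the NAPEPLD spot, with a difference of 1.86, lies outside it among spots of mixed sign.

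DAGLA, the diacylglycerol lipase best known from the brain, was measured by 2 probes and detected by none. The probe at position 183 read -6.00 in crossbred and -6.45 in Zebu testis, and that at position 2758 read -6.61 and -7.46. No fold is given, since neither array gave a measured level.

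DAGLB, the other diacylglycerol lipase, was well above background on both arrays with all 5 probes. Its brightest probe, at position 4435, read 0.935 in crossbred and 1.597 in Zebu testis, from signals of 2248 and 3730. The difference was -0.66, and 82.3% of 2506 detected gene names of like level, each by its brightest probe, lay above it. The probes at positions 1899 and 2872 had differences of -0.79 and -0.49 in the same direction.

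The remaining 2 probes of DAGLB lay at the ends of the range. The probe at position 3838 had the lowest value, -1.25, with signals of 65.2 and 162, and the array's annotation places only 34 of its 60 bases on the build. Their place, chr25:40137877-40137910, lies past that of the probe at position 4435, chr25:40137959-40138018, on the minus strand. That is out of transcript order, so whether this probe reads DAGLB alone is uncertain. The probe at position 1544 read -4.42 and -4.48 and differed by 0.06, well within the spot SD of 0.35. In all, 4 of 5 DAGLB probes were below 0, with a median of -0.66 and an SD between probes of 0.48. Of 288 gene names with 5 probes well above background on both arrays, 47.9% had at least 4 probes below 0, so the count alone does not set DAGLB apart from other genes.

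FAAH, the amidase that ends anandamide signalling, was well above background on both arrays with all 4 probes, and all 4 were brighter in crossbred testis. At position 2178 it read 4.30 in crossbred and 3.33 in Zebu testis, from signals of 23226 and 12424. At position 1805 it read 3.073 and 2.001, from signals of 9896 and 4933. The 2 dimmer probes repeated the direction, with signals of 2423 and 1457 at position 1410 and of 1867 and 989 at position 1538.

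The FAAH differences were 0.80, 0.99, 1.07 and 0.97 from the first to the last position, with a mean of 0.96 and an SD of 0.11 between probes. This SD between probes was below the spot SD of 0.32, and each of the 4 differences was above it. The ratios ran from 1.74 to 2.10, so FAAH stayed below the threshold by every probe. Of 813 gene names with 4 probes well above background on both arrays, 17.7% had all 4 above 0, and 2.09% had all 4 at or above the smallest FAAH difference.

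The spots around 3 of the FAAH probes had median differences of -0.15, 0.02 and -0.18, near 0. Around the brightest probe, at position 2178, the median was 0.64, and 3 of the 6 adjacent spots were higher past the threshold. The part of those neighbours in the reading of that probe was not tested. Without it the other 3 probes still gave 0.80 to 1.07.

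MGLL, the lipase that removes most 2-arachidonoylglycerol in many tissues, had 2 probes, both well above background on both arrays. At position 2949 it read 0.49 in crossbred and 0.89 in Zebu testis, from signals of 1654 and 2288, a difference of -0.40. At position 636 it read -5.47 and -5.00, a difference of -0.48. These were 1.2 and 1.3 times the spot SD. Both probes were below 0 in 40.1% of 4758 gene names with 2 such probes.

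**Figure D3:**
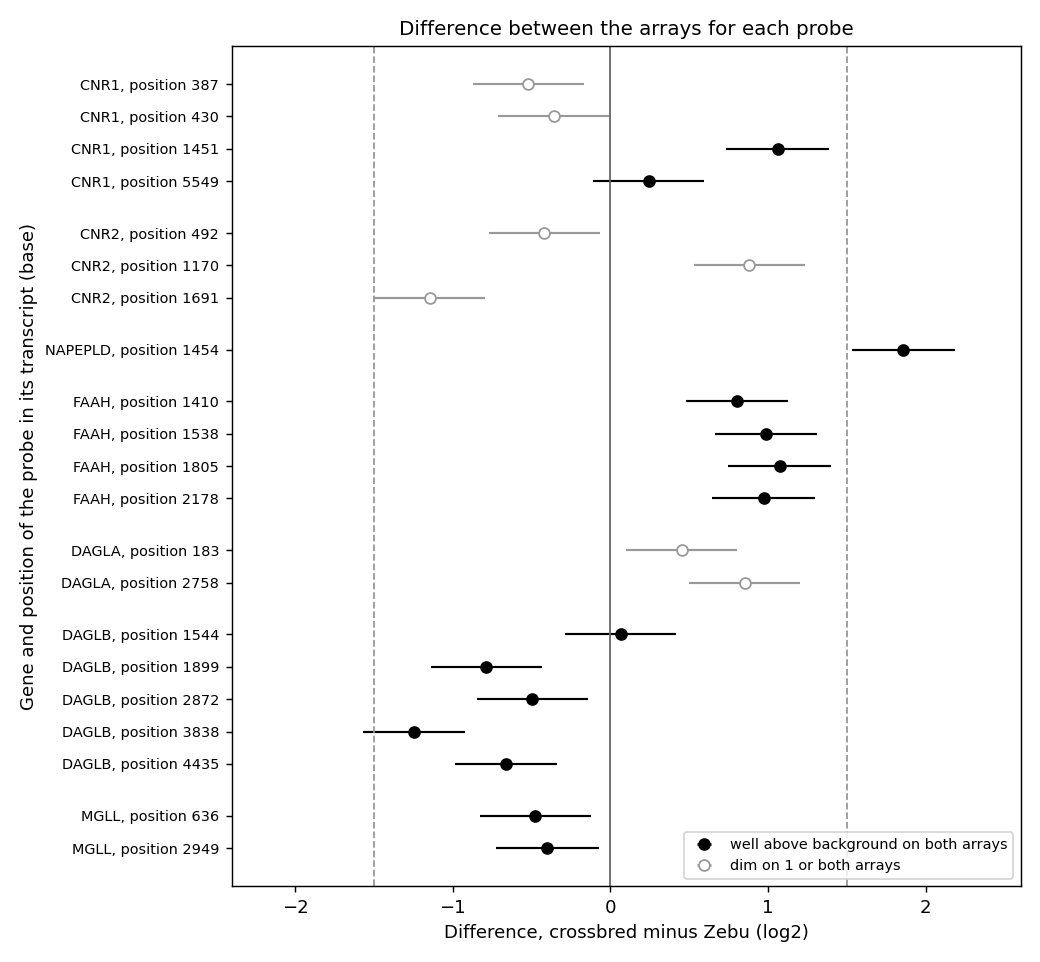
Difference (log2, crossbred minus Zebu) of each of the 21 probes. Bars are 1 SD between spots of other probes in the same broad range of level, and cover spotting and scanning only. They were taken from probes well above background on both arrays, so for open symbols they come from better detected probes. Dashed lines mark the threshold of 1.5 and open symbols were dim on 1 or both arrays. NAPEPLD alone lies past the line, at 1.86, and the 4 FAAH probes cluster from 0.80 to 1.07.

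The enzymes were also set side by side by the lipid they handle, a grouping made after the values had been seen. On the N-acylethanolamine side 10 genes were detected, 6 with a difference above 0 and 4 below, and 15 of their 19 probes with both signals well above background were above 0. The median was 0.63 over genes and 0.80 over probes, 4 of which belong to FAAH. The probes of GDPD1 and GDE1, phosphodiesterases that release N-acylethanolamines, gave 1.096 to 1.408 and 0.64 to 0.68, and those of NAAA, an acid amidase of lysosomes, gave 0.65 and 0.90. PTPN22, a phosphatase, gave 0.62. Against this, ABHD4, which acts on the same precursors as NAPE-PLD, gave -0.83, the phosphatase INPP5D gave -0.19, and the brightest probe of the phospholipase PLA2G16 gave -0.81, with 0.21 from its second. The 2 probes of HRASLS, an acyltransferase, disagreed, at -0.79 and 2.52. Spots around the brightest probes of HRASLS and PLA2G16 had median differences of -0.74 and -0.42. Around those of ABHD4 and INPP5D the medians were 0.36 and 0.01. The part of the neighbours in these readings was not tested.

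On the 2-arachidonoylglycerol side 4 of 5 genes were detected, all 4 with a difference below 0. Of their 11 probes 10 were below 0, the uncertain DAGLB probe at position 3838 among them. The median was -0.53 over genes and -0.49 over probes. ABHD6 and ABHD12, serine hydrolases that take part in the breakdown of 2-arachidonoylglycerol, gave -0.87 and -1.04, and -0.14 and -0.24. Over all 36443 probes with both signals well above background, 46.5% were above 0 and the median was -0.06. Probes of 1 gene share their transcript and some overlap. Those of GDPD1 at positions 864 and 867, and of GDE1 at 1374 and 1383, start almost at the same place. The genes were also grouped with their values known, so these counts are a description and not a test. The difference between the 2 sides was not tested.

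**Figure D4:**
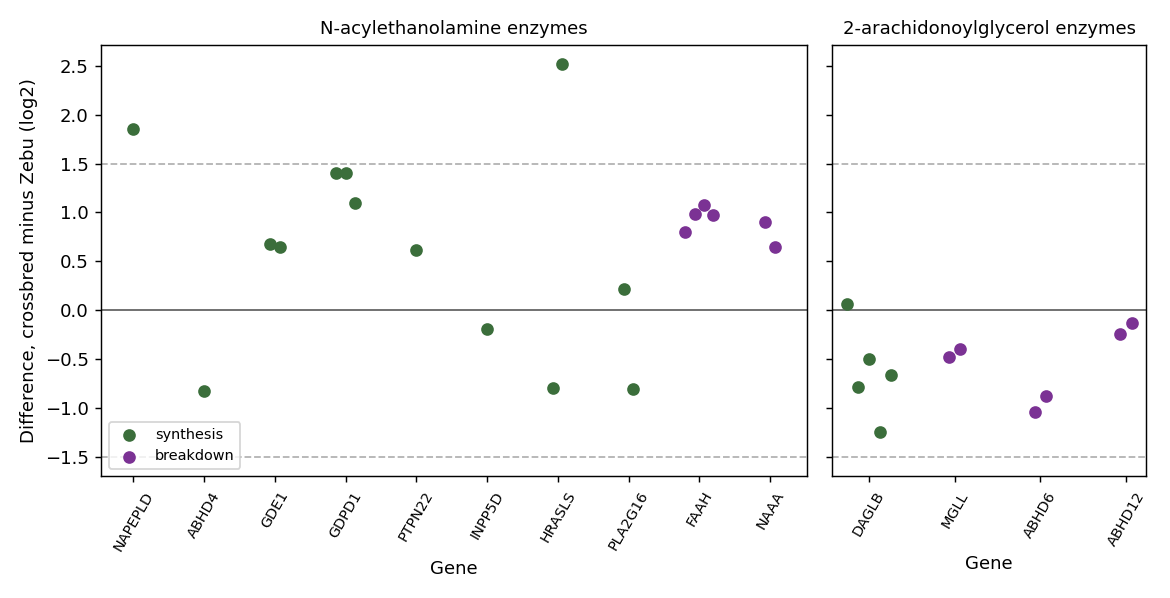
Difference (log2, crossbred minus Zebu) of each probe with both signals well above background, by gene, for enzymes of the N-acylethanolamines (left) and of 2-arachidonoylglycerol (right); colours tell synthesis from breakdown and dashed lines mark 1.5. On the left 15 of 19 probes, some of which overlap, lie above 0, and on the right 10 of 11 lie below it.

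Genes around the 7 members were taken from lists of the wider pathway. Of 94 further genes examined, 88 were named on the arrays and 75 were detected, of which 5 were higher and 4 lower, with a median of -0.19, beside 7.25% higher and 2.98% lower over all detected names. The 4 lower genes are those taken from the study's own list, which holds genes it reported as downregulated. With normexp background correction 1 was higher and 2 were lower. Genes of the lists without a matching name, such as GPR55 and FAAH2, were not analysed here.

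Among the other receptors for these lipids, GPR18, a receptor proposed for N-arachidonoyl glycine, was higher in crossbred testis, at 3.14 against 0.76, a difference of 2.38 from 1 probe. The median difference of its neighbouring spots was -0.04. TRPV1, an ion channel opened by anandamide, and PPARG, a nuclear receptor, had differences of 0.22 and -0.01. The medians of their neighbouring spots were 0.66 and 0.72. PPARA and GPR119 were not well above background on either array. Of 5 detected receptors of this list, CNR1 and CNR2 included, 1 was higher and none lower. Over all detected names the shares were 7.25% and 2.98%.

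None of the 7 detected genes for breakdown and oxidation, nor of the 6 for binding and receptor partners, was past the threshold. Over all detected names 10.2% were past it in either direction. Among the genes of these lists CNRIP1, a protein that binds the tail of CB1, came nearest, at -1.42. FABP5 and FABP3, fatty acid binding proteins that carry lipids through the cytosol, gave -0.54 and 0.62. ALOX15, a lipoxygenase that oxidises both ligands, gave 0.10.

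Downstream of the receptors, 37 of 40 G proteins and effectors were detected, 10 with a difference above 0 and 27 below, with a median of -0.47. Over all detected names 46.9% were above 0, with a median of -0.05. Among the genes below 0 was PLCB3, at -0.44, whose spot lies in the dark patch. Its other 2 probes well above background on both arrays gave -0.07 and 0.04. Higher were PLCB1, a phospholipase C, by 2.20 with 1 probe, and ADCY3, an adenylyl cyclase, by 1.84, although its second probe gave 0.13. Lower were the stress kinase MAPK13, at -2.02 with a second probe at -1.01, and the G protein subunit GNB3, at -1.73 with a second probe at -1.34. ADCY9, another adenylyl cyclase, was at least 2.26-fold lower by its brightest probe, which was dim in crossbred testis, and its second probe gave -0.11.

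Of the receptors and channels of the synapse, 17 of 24 named genes were detected, 2 of them higher and 1 lower, beside 7.25% and 2.98% over all detected names. The lower gene was GABRA2, whose signal was dim in crossbred testis. GABRA3, a GABA receptor subunit, gave 1.88 and RIMS1, an organiser of vesicle release, gave 1.66, with 0.64 from its second detected probe. Spots around the brightest probes of GABRA3 and RIMS1 had median differences of 0.55 and 0.07. A second GABRA3 probe went the other way: it was well above background in Zebu testis alone, at -5.60 against -6.34.

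Of the genes that the study itself gives for retrograde endocannabinoid signalling, 4 were examined here: GABRA2, ADCY9, MAPK13 and GNB3. The study lists them under a downregulated pathway, from these same samples. That all 4 were lower by the brightest probe thus follows from the choice and is not independent evidence. The GABA receptor subunit GABRA2 and ADCY9 counted as lower by differences of -2.16 and -1.53, with a crossbred signal that was dim. Their bounds, at least 1.03-fold and 2.26-fold, did not reach the 2.83-fold threshold. The GABRA2 signal was barely above background in Zebu testis. None of the 7 receptor and enzyme genes is on that list, which holds only genes reported as downregulated. Here none of the 7 was lower past the threshold.

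Levels in whole testis depend on its makeup, and fewer cells of a type cannot be told apart from less RNA per cell. Markers of spermatids were above 0 for 7 of 7 genes, 4 of them higher, with a median of 1.64 and a summed signal 1.89 times that of Zebu testis. Over all detected names 46.9% were above 0 and 7.25% were higher. Markers of Sertoli cells were below 0 for 6 of 6 named genes and those of Leydig cells for 6 of 6, with medians of -0.99 and -0.79 and summed signals 0.53 and 0.66 times those of Zebu testis. Markers of peritubular cells were also below 0 for 5 of 5, with a median of -0.77. Of the other germ cells, spermatogonium markers were below 0 for 4 of 5 named genes, with a median of -0.71, and spermatocyte markers above 0 for 3 of 3, with a median of 0.20.

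B and plasma cell markers were above 0 for 5 of 5 named genes, with a median of 0.75 and a summed signal 3.39 times that of Zebu testis. Of these, 2 were higher, IGJ and MS4A1, beside 7.25% over all detected names. Macrophage markers had a median of 0.20 and a summed signal 1.92 times that of Zebu testis, with AIF1 alone higher, at 1.95, and CSF1R at -0.19. T cell markers were below 0 for 5 of 6 by the brightest probe, with a median of -0.53. Other probes well above background on both arrays gave 0.13 and 0.55 for CD3D, and -0.14 and 0.36 for CD3G. Their brightest probes gave -0.56 each, so the direction of these genes depended on the probe. Endothelial markers had a median of 0.13. Of the red blood cell markers HBA alone was detected, at -2.15. FAAH, with a mean difference of 0.96, and NAPEPLD, at 1.86, had the sign of the spermatid, spermatocyte and B and plasma cell markers. Most macrophage and endothelial markers also had that sign. DAGLB and MGLL, at -0.66 and -0.40, had the sign of HBA and of most Sertoli, Leydig, peritubular and spermatogonium markers. By the brightest probe most T cell markers had that sign too. The part of the cell makeup in these differences was not tested.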

How the data were processed

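RNA pooled per group was labelled from an oligo-dT primer, which favours the 3′ part of transcripts. Per the file headers, the deposited processed signal is an intensity made by Agilent Feature Extraction 11.5.1.1, background-subtracted and detrended within each array. The authors also deposited log2 values after a 75th percentile shift, made per the study's methods in GeneSpring; of these, 94.6% (crossbred) and 94.4% (Zebu) lay within 0.01 of the values computed here, so their scale and centring are known.

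From 62976 spots, controls and 13 outlier spots (no member's) were left out, and none was saturated. Log2 signals of spots that share a probe were averaged, and the array's 75th percentile (1176 and 1233) was subtracted. Where 1 array was dim, its bound is the higher of its own signal and the lowest level well above background. Well above background were 72.0% and 74.3% of spots, and the arrays' number limits the precision. Alternatives were normexp (limma 3.58.1, offset 50), other shifts, quantile scaling, probe choice, patches and thresholds. Scripts (Python 3.11.15) were tested on simulated data. Named were all members with every probe, up to 3 genes past the threshold per list and direction with both signals well above background, and the study's own list; some listed genes are not reported here. Members and lists were chosen with earlier results of these data known.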

Additional observations from a re-analysis of the deposited data

How the results depend on the processing

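Alternatives were run for the differences of the 5 members with a gene probe well above background on both arrays; CNR2 and DAGLA have none. None turned the sign, except that 1 of the single DAGLB probes was above 0; CNR1 and CNR2 probes that were dim on 1 or both arrays were not run as single probes. FAAH ranged from 0.80 to 1.07 over 13 alternatives, MGLL from -0.48 to -0.24 over 11, and NAPEPLD from 1.49 to 1.95 over 9. With normexp background correction NAPEPLD was 1.49 and CNR1 0.60, no member was past the threshold (0 against 1), and the further pathway genes higher and lower were 1 and 2, against 5 and 4. With all probes of a gene averaged CNR1 was 0.11, the median over the members was -0.0612 against 0.35, and 2 pathway genes were higher. With spots well above background on both arrays only, that median was 0.95 and 2 pathway genes were lower. By single probes CNR1 was 0.24 at position 5549, and DAGLB was 0.0645 at position 1544 and -1.25 at position 3838. A log2 threshold of 1 gave 2 members higher, and 11 pathway genes higher and 10 lower. A linear threshold of 1.5-fold gave 3 members higher and 1 lower, and 17 pathway genes higher and 24 lower. Chosen after seeing the data, leaving out member spots near a patch removed NAPEPLD, which gave 0 members higher and a median of -0.27. Subtracting the median of gene names of like level, also chosen after seeing the data, gave 2 pathway genes lower. Apart from the effect of fewer members or probes, the cause was not tested. The median difference of all detected names was -0.0575 in the main setting, and -0.0835 to -0.0186 under the alternatives. The median of -0.05 given in the results is another measure, which uses bounds where 1 array was dim. No paired analysis was possible because each group had 1 array, and for the same reason no replicate could be left out. Signals near background limit CNR2, DAGLA and the dim CNR1 probes.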
